A study of Mus musculus with 12 samples.

Results

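Integrins are cell surface receptors made of an alpha and a beta chain that hold cells to the extracellular matrix or to other cells, and laminins are secreted proteins of an alpha, a beta and a gamma chain that build the basement membrane on which many of these receptors act. All genes of both families that a transcript cluster of the array measured on its own were taken, by their symbols, with the brightest cluster per gene. This gave 35 genes of 22180 named genes, of which 17 encode integrin alpha chains, 8 integrin beta chains and 10 laminin chains. Itga10 was not analysed here, and clusters shared by Itgb4 or Itga4 with another gene were not used.

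The cells were E14, a mouse embryonic stem cell line, transduced either with a hairpin RNA against LOXL2 (shLOXL2), a lysyl oxidase family member, or with a control hairpin (shCT). Each kind was sampled with RA at day 1 and without RA at day 0, so the 4 groups, with 3 arrays each, were shLOXL2 with RA, shLOXL2 without RA, shCT with RA and shCT without RA. RA is read here as retinoic acid, which the labels do not spell out. Without a day 1 group that lacked RA, the effect of RA and that of the extra day cannot be told apart. The labels are silent on whether replicates were separate cultures and whether transduced cells were clones or pools. The p-values therefore measure the spread between these arrays, which may be technical.

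Values are log2 signals, and array medians lay between 4.58 and 4.68. In the clearer of the clusters that cover Loxl2, which the annotation shares with the predicted gene Gm21451, shLOXL2 arrays with RA lay between 5.10 and 5.30, against 5.85 to 6.51 on shCT arrays with RA. Without RA the shLOXL2 arrays lay between 4.79 and 5.06 and the shCT arrays between 5.17 and 5.71. In the other cluster the constructs did not overlap with RA and overlapped without RA. The median of all genes was 5.06, and all 8 markers of mouse embryonic stem cells were above it. Above it also were 2 of 7 markers of fibroblast feeders, 3 of 7 leukocyte markers and 2 of 5 endothelial and platelet markers. All 11 markers of primitive and parietal endoderm were above it too, and their mean log2 signal differed between arrays of 1 group: it was 7.16, 6.65 and 6.29 on shCT arrays with RA and 6.97, 6.003 and 5.84 on shCT arrays without RA, for replicates 1, 2 and 3. On shLOXL2 arrays it lay between 6.46 and 6.56 with RA and between 5.85 and 6.02 without RA. Both shCT arrays numbered 1 thus stood apart, and results that rest on them are given with and without them. The mean of the embryonic stem cell markers was lower with RA: 8.71 to 8.88 on shLOXL2 arrays with RA and 9.21 to 9.27 without, and 8.71 to 8.89 on shCT arrays with RA and 9.10 to 9.32 without. A limma adjusted p under 0.05 was reached by Pou5f1 and Zfp42 in each construct and by Utf1 in shLOXL2 cells. Sox2, Esrrb, Dppa5a and Tdgf1 were lower without reaching it, and Nanog differed by -0.04 in shLOXL2 cells and 0.21 in shCT cells. Of the endothelial and platelet markers, Pecam1 reached it, 0.88 higher with RA in shLOXL2 cells and 0.92 in shCT cells. Cdh5, Kdr, Pf4 and Gp9 did not. In bulk RNA, fewer cells of a type and less RNA per cell cannot be told apart.

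The laminin chains Lama1, Lama5, Lamb1 and Lamc1 belong to the basement membrane of the first epithelium of the embryo. Itgb1 is the common partner of many alpha chains: with Itga3, Itga6 or Itga7 it binds laminins, with Itga1, Itga2 or Itga11 collagens, and with Itga5, Itga8 or Itgav the RGD motif of fibronectin and related proteins. Itgb4 pairs with Itga6 in hemidesmosomes, Itgb7 with Itga4 or Itgae on lymphocytes, and Itgb2 with Itgal, Itgam, Itgax or Itgad on leukocytes.

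After a day with RA, Itga3 was higher and Itgb7 lower in cells of either construct, and most other members moved by less than could be called. In shLOXL2 cells 1 of 35 members rose and 1 fell past a limma adjusted p of 0.05, where 3.46% of all genes were called, 2.05% higher and 1.41% lower. In shCT cells the counts were likewise 1 and 1, where 4.25% of all genes were called, 2.16% higher and 2.09% lower. On average of both constructs 3 rose (Itga3, Itga5 and Lama4) and 3 fell (Itgb7, Itgb5 and Itga1), or 17.1% of members, where 10.3% of all genes were called, 5.52% higher and 4.8% lower. After centring each array on its median, which moved the median of all genes to -0.10 in shCT cells, 1 rose and 5 fell on average, 1 rose and 3 fell in shLOXL2 cells and 1 rose and 2 fell in shCT cells. A further quantile normalization left 3 higher and 4 lower on average, 1 higher and 2 lower in shLOXL2 cells and 1 of each in shCT cells. The shares of all genes above belong to the fit without these steps, and those after them are not given. The counts after these steps are therefore not a result about the members. The median RA difference over the members was 0.01 in shLOXL2 cells and 0.08 in shCT cells, beside -0.01 and 0.00 over all genes.

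**Figure D1:**
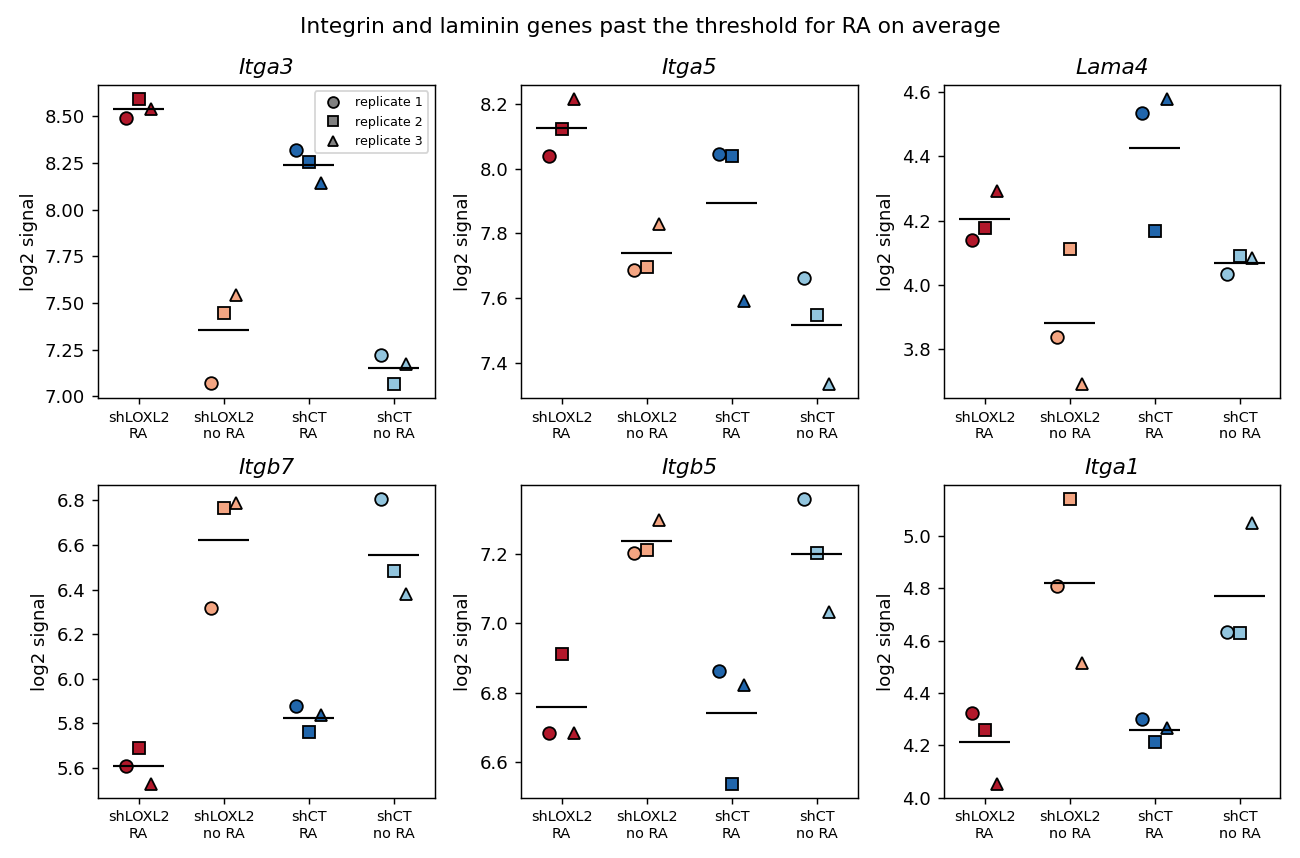
Log2 signal of the 6 members past the threshold for RA on average, 1 panel per gene, with a symbol for each array and a line at the mean of each group of 3 arrays. For Itga3 the arrays with RA lie between 8.14 and 8.59, all above the arrays without RA, and for Itgb7 they lie between 5.53 and 5.88, all below them.

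Itga3 encodes the alpha chain of a laminin receptor found on epithelia. Its log2 signal was 8.49, 8.59 and 8.54 on shLOXL2 arrays with RA, against 7.07, 7.45 and 7.55 without RA. On shCT arrays it was 8.32, 8.26 and 8.14 with RA, against 7.22, 7.07 and 7.17 without RA. The arrays with RA were all above those without, by more than the range within any group. The log2 difference was 1.19 ± 0.13 in shLOXL2 cells (SE, 3 arrays per group, limma adjusted p = 0.000175), a 2.28-fold rise. In shCT cells it was 1.09 ± 0.13 (limma adjusted p = 0.000339), a 2.12-fold rise. Here and below, the SE comes from a spread per gene shared by all groups in the fit, not from the compared groups alone.

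Itgb7 encodes the beta chain of lymphocyte homing and intraepithelial receptors. Its log2 signal was 5.61, 5.69 and 5.53 on shLOXL2 arrays with RA, against 6.32, 6.77 and 6.79 without RA. On shCT arrays it was 5.88, 5.76 and 5.84 with RA, against 6.81, 6.48 and 6.38 without RA. The groups with and without RA did not overlap in either construct. The log2 difference was -1.01 ± 0.15 in shLOXL2 cells (limma adjusted p = 0.00166) and -0.73 ± 0.15 in shCT cells (limma adjusted p = 0.0138). In shCT cells the call was lost without replicate 2 with RA (-0.70, adjusted p = 0.0625) and without both arrays numbered 1 (-0.63, adjusted p = 0.113).

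Because Itga3 and Itgb7 were the members called in each construct and moved in opposite directions, the sequences at their start sites are shown. The windows run from 250 bases before to 50 bases after a RefSeq start on build GRCm38.p6, in the gene's direction. Capitals mark the GC box GGGCGG or its reverse complement. Itga3 has 2 annotated starts, at chr11:95076665-95076964 and chr11:95069149-95069448, both on the minus strand, and Itgb7 has 1, at chr15:102231886-102232185 on the minus strand.
Itga3, upstream start: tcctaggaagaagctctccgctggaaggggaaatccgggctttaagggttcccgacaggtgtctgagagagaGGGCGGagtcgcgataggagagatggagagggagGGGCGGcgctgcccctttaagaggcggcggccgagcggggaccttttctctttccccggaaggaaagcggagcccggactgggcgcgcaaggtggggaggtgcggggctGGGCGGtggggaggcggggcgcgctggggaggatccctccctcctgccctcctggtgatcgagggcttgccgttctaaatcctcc
Itga3, downstream start: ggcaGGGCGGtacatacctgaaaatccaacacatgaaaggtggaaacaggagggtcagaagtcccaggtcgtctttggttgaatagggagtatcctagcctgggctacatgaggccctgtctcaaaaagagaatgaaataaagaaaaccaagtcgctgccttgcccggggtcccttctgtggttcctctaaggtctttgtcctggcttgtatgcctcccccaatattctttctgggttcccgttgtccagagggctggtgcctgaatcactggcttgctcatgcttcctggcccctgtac
Itgb7: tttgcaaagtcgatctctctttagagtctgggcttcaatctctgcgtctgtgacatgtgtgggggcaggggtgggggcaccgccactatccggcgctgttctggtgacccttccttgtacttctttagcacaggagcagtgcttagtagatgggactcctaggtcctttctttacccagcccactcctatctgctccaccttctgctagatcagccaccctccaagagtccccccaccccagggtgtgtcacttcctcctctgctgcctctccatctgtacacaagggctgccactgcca
The upstream Itga3 window held 3 GC boxes and was 66.7% G and C. The downstream window held 1 and was 52.3% G and C. The Itgb7 window held no GC box and was 56.3% G and C.

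Of the 35 members, 22 had a window in the RefSeq table, with 25 windows in all. The GC box stood in 12 of the 25, on either strand, beside 35.7% of all 32851 windows. The exact hexamer AGGTCA, a core of retinoic acid receptor sites, stood in 0 of the 25 on either strand, beside 16.3% of all windows. Direct repeats of it with 2 or 5 bases between them therefore had no match among the members. Among all windows they were found in 3 each. Variants of this hexamer were not searched, so these counts do not show that the members lack receptor sites. The variant GGGTCA stands in the downstream Itga3 window, and its reverse complement TGACCC in the Itgb7 window. The TATA box TATAAA stood in 0 of the 25, beside 13.6% of all windows. Member windows had a median of 59.0% G and C, against 52.7% over all windows.

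The partners of Itga3 and Itgb7 did not pass in the fit without pairing. Itgb1, which pairs with Itga3, had 8.96, 8.45 and 8.58 on shLOXL2 arrays with RA, against 8.69, 8.10 and 8.09 without RA. On shCT arrays it had 8.61, 8.53 and 8.79 with RA, against 7.89, 8.41 and 8.60 without RA. The groups overlapped in each construct, and the log2 difference was 0.37 ± 0.21 in shLOXL2 cells and 0.35 ± 0.21 in shCT cells (limma adjusted p = 0.467 and 0.463). On average it was 0.36 ± 0.15 (limma adjusted p = 0.163), and it passed with arrays paired by number within each construct (adjusted p = 0.0273). Of the chains that pair with Itgb7, Itga4 stood at 0.28 ± 0.17 in shLOXL2 cells and 0.27 ± 0.17 in shCT cells, and Itgae at -0.15 ± 0.14 and -0.01 ± 0.14.

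Among the other laminin receptor chains, Itga6 had 8.001, 7.78 and 7.88 on shLOXL2 arrays with RA, against 8.29, 8.24 and 8.15 without RA. In shCT cells, its signal was 7.66, 7.61 and 7.94 with RA, against 7.76, 8.13 and 8.28 without RA. Groups did not overlap in shLOXL2 cells and overlapped in shCT cells, and the average RA difference of -0.33 ± 0.10 missed the threshold (limma adjusted p = 0.066), while that of Itga3 was 1.14 ± 0.09 (limma adjusted p = 4.09e-06). Itgb4, the hemidesmosomal partner of Itga6, differed by 0.11 ± 0.13 in shLOXL2 cells and by 0.40 ± 0.13 in shCT cells (limma adjusted p = 0.801 and 0.122). Itga7, a laminin receptor chain of muscle, differed by -0.06 ± 0.20 in shLOXL2 cells and -0.03 ± 0.20 in shCT cells.

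The collagen receptor chain Itga1 had 4.32, 4.26 and 4.05 on shLOXL2 arrays with RA, against 4.81, 5.14 and 4.51 without RA. For shCT, the arrays read 4.30, 4.21 and 4.26 with RA, against 4.63, 4.63 and 5.05 without RA. Each array with RA was below each array without RA within a construct. The difference passed on average (-0.56 ± 0.12, limma adjusted p = 0.00734) and in neither construct alone (-0.61 ± 0.17 in shLOXL2 cells, limma adjusted p = 0.0684, and -0.51 ± 0.17 in shCT cells, 0.117). In shLOXL2 cells it passed without replicate 3 of shLOXL2 without RA (adjusted p = 0.0337) and without replicate 3 of shCT without RA (0.0461). The mean of Itga1 over all arrays, 4.52, lay below the median of all genes, and no background level was set. The collagen receptor chains Itga2 and Itga11 had average RA differences of 0.16 ± 0.09 and 0.01 ± 0.12.

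Among chains of receptors for fibronectin and vitronectin, Itga5 was higher and Itgb5 lower. Itga5, of the main fibronectin receptor, had 8.04, 8.12 and 8.21 on shLOXL2 arrays with RA, against 7.69, 7.70 and 7.83 without RA, and these groups did not overlap. The shCT arrays gave 8.05, 8.04 and 7.59 with RA, against 7.66, 7.55 and 7.34 without RA, and these overlapped. Its average difference was 0.38 ± 0.10 (limma adjusted p = 0.029), and leaving out any 1 of 7 arrays ended the call (adjusted p of at most 0.0786). These were replicates 2 and 3 of shLOXL2 with RA, 2 of shLOXL2 without RA, 1 and 2 of shCT with RA, and 2 and 3 of shCT without RA. It was also lost without both shCT arrays numbered 1 (0.38, adjusted p = 0.0641).

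Itgb5, a vitronectin receptor chain that pairs with Itgav, had 6.68, 6.91 and 6.68 on shLOXL2 arrays with RA, against 7.20, 7.21 and 7.30 without RA. In shCT cells, its signal was 6.86, 6.54 and 6.82 with RA, against 7.36, 7.20 and 7.03 without RA. Neither construct showed overlap, and the average difference was -0.47 ± 0.09 (limma adjusted p = 0.00563). Its partner Itgav stood on the other side, with 7.58, 7.27 and 7.32 on shLOXL2 arrays with RA, against 7.11, 7.03 and 6.85 without RA. On shCT arrays Itgav had 7.17, 7.01 and 7.58 with RA, against 6.32, 6.78 and 7.18 without RA, and its average difference of 0.44 ± 0.14 missed the threshold (limma adjusted p = 0.0714). Itgav was the member with 2 clusters: the dimmer, at a mean of 3.78 over all arrays, had an average RA difference of 0.04 ± 0.12.

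The other RGD receptor chains stayed under the threshold. Itga8, the nephronectin receptor chain, had an average difference of 0.41 ± 0.13 (limma adjusted p = 0.0702), and Itgb3, of the platelet and vitronectin receptors, 0.25 ± 0.09 (0.115). Itga2b, the platelet partner of Itgb3, stood at 0.07 ± 0.09. Itgb6 and Itgb8, which pair with Itgav in receptors that activate TGF-beta, had average differences of -0.03 ± 0.15 and 0.00 ± 0.12. Itga9, which pairs with Itgb1 and binds tenascin and VCAM1, had 5.61, 5.91 and 5.78 on shLOXL2 arrays with RA, against 6.12, 6.36 and 6.57 without RA. On shCT arrays Itga9 had 5.95, 5.96 and 5.61 with RA, against 5.75, 5.91 and 6.09 without RA, so that the groups were separate in shLOXL2 cells and overlapped in shCT cells. The leukocyte chains Itgal, Itgam, Itgax, Itgad and Itgb2 had average differences between -0.12 and 0.27, none past the threshold.

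Within shLOXL2 cells, deviations from group means correlated between arrays of the same number with and without RA at 0.558, 0.248 and 0.216. Replicate 2 with RA correlated better with replicate 3 without RA than with its own number. A limma fit paired arrays by number within each construct, with an estimate of spread per gene shared by both constructs. Its calls in shLOXL2 cells thus also rest on the pairing of shCT arrays. In shLOXL2 cells the fit called 5 of 35 members, 1 higher and 4 lower, where 7.32% of all genes were called. Beside Itga3 and Itgb7, the paired limma fit called Itga1 (adjusted p = 0.0214), Itga9 (-0.58 ± 0.14, adjusted p = 0.038) and Itgb5 (adjusted p = 0.0453). On average of both constructs the same fit called 10 members, where 16.6% of all genes were called. Those not called without pairing were Itga8 (adjusted p = 0.00356), Itgav (0.00988), Itga6 (0.0221) and Itgb1. The shCT arrays numbered 2 correlated at only 0.0394, so the pairing is uncertain there, as it is for shLOXL2 arrays numbered 2. The mean of the endoderm markers was also higher with RA on each shLOXL2 array. Of the 11 markers, Stra6 and Gata6 passed, with RA differences of 2.38 and 1.99 in shLOXL2 cells, and Pdgfra stood at 1.22 without passing. The other 8 did not pass, and Foxa2, Amn and Cubn were at -0.01, -0.15 and -0.26. Whether endoderm cells became more frequent, or had a part in the members' differences, was not tested.

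**Figure D2:**
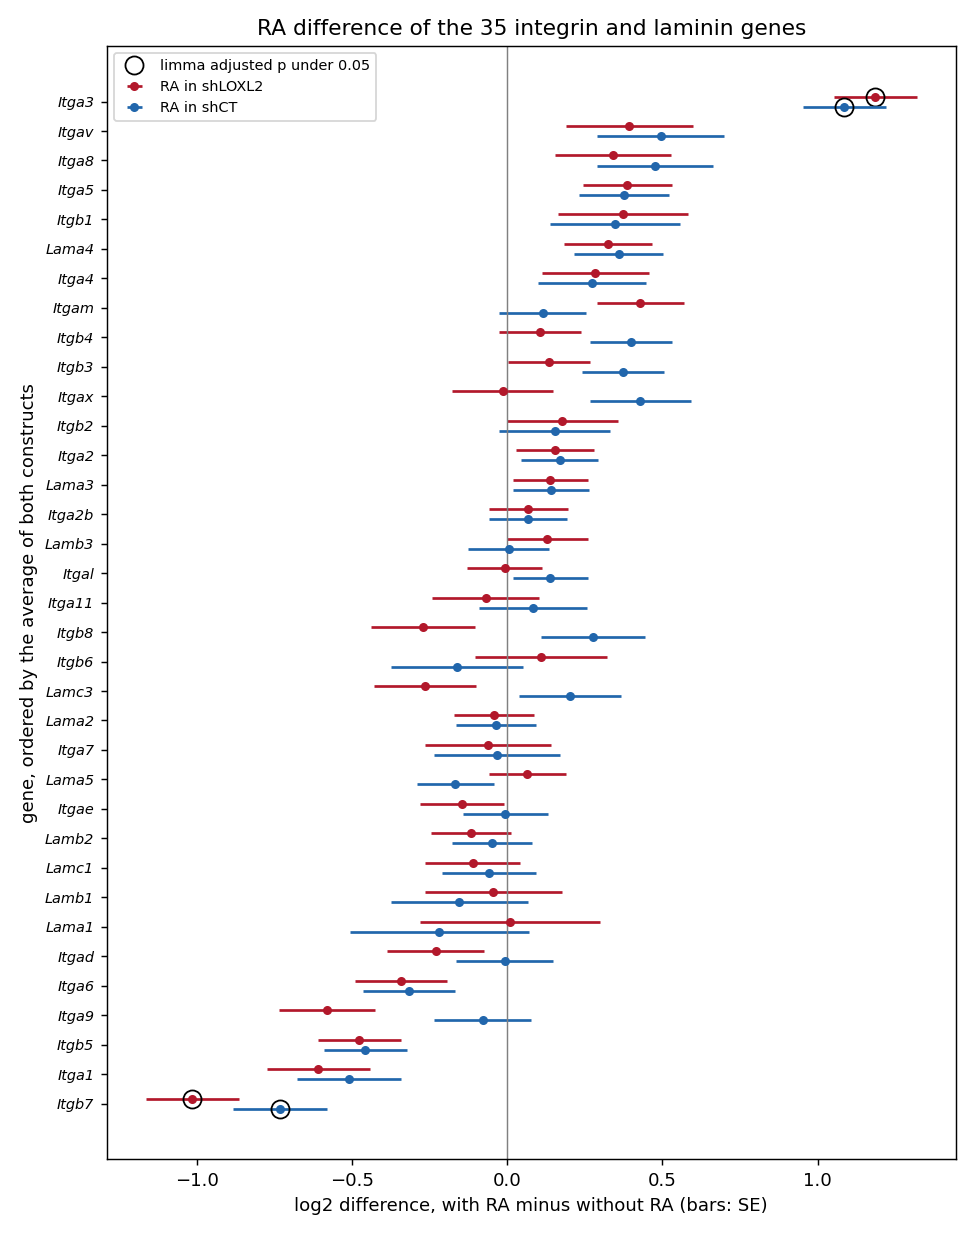
Log2 difference between cells with and without RA for the 35 members, in shLOXL2 and in shCT cells, with standard errors as bars. Rings mark limma adjusted p under 0.05, which Itga3 and Itgb7 reached in each construct.

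Counted by arrays alone, 6 members had each shLOXL2 array with RA above each array without RA and 8 had each below, where 10.3% and 9.32% of all genes did. In shCT cells 5 members were above and 3 below, where 10.7% and 10.5% of all genes were. The members separate in each construct were Itga3 and Lama4 above, and Itgb7, Itgb5 and Itga1 below.

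Among the 10 laminin chains, Lama4 passed on average, and no chain passed in either construct alone. Lama4, the alpha chain of vessel and mesenchymal basement membranes, had 4.14, 4.18 and 4.29 on shLOXL2 arrays with RA, against 3.84, 4.11 and 3.69 without RA. For shCT, the arrays read 4.53, 4.17 and 4.58 with RA, against 4.03, 4.09 and 4.08 without RA. The average difference was 0.34 ± 0.10 (limma adjusted p = 0.0472), and leaving out any 1 array ended the call (adjusted p of at most 0.119), except replicate 2 of shLOXL2 without RA and replicate 2 of shCT with RA. Without both shCT arrays numbered 1 it was 0.31 (adjusted p = 0.166). These signals were below the median of all genes.

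The chains of the early embryonic laminin had no RA difference past the threshold and differed much between shCT arrays. Lama1 had 8.29, 8.06 and 8.05 on shLOXL2 arrays with RA, against 8.13, 8.06 and 8.19 without RA. The shCT arrays gave 8.97, 8.38 and 7.80 with RA, against 9.30, 8.36 and 8.15 without RA. Replicate 1 was the highest shCT array in each RA state.

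Lamb1 had 8.32, 8.39 and 8.34 on shLOXL2 arrays with RA, against 8.37, 8.33 and 8.49 without RA. On shCT arrays Lamb1 had 9.03, 8.49 and 8.46 with RA, against 9.42, 8.49 and 8.54 without RA. Lamc1, the gamma chain shared by most laminins, had 9.83, 9.78 and 9.69 on shLOXL2 arrays with RA, against 9.92, 9.84 and 9.88 without RA. On shCT arrays Lamc1 had 10.15, 9.99 and 9.72 with RA, against 10.33, 9.93 and 9.78 without RA. The 2 shCT arrays numbered 1 were the highest of all 12 arrays for all 3 chains and for the mean of the endoderm markers, and the part of such cells in the laminin signal was not tested.

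**Figure D3:**
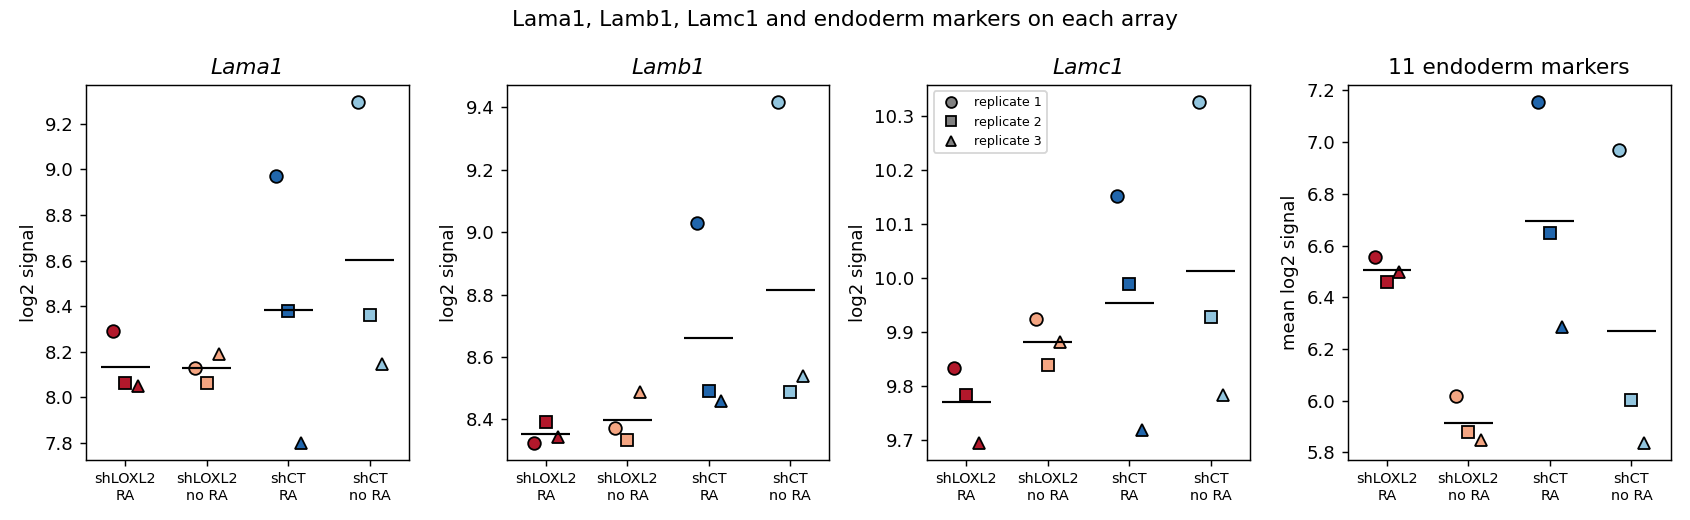
Log2 signal of Lama1, Lamb1 and Lamc1 and the mean log2 signal of 11 endoderm markers on each array, with a line at each group mean. Replicate 1 of shCT is the highest array of its group in every panel, at 9.30 for Lama1 without RA.

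The standard deviation of Lama1 was 0.136 and 0.064 in shLOXL2 cells with and without RA, and 0.585 and 0.611 in shCT cells. That of Lamb1 was 0.034 and 0.081 in shLOXL2 cells and 0.320 and 0.523 in shCT cells. In shCT cells RA differences were -0.22 ± 0.29 for Lama1, -0.15 ± 0.22 for Lamb1 and -0.06 ± 0.15 for Lamc1, and without the arrays numbered 1 they were -0.17 ± 0.19, -0.04 ± 0.14 and -0.00 ± 0.15. In shLOXL2 cells they were 0.01 ± 0.29, -0.04 ± 0.22 and -0.11 ± 0.15. These SE come from a spread per gene shared by all groups, so in shLOXL2 cells they also carry the spread of the shCT arrays. With all arrays, the 95% interval of the Lama1 difference ran from -0.61 to 0.63 in shLOXL2 cells and from -0.84 to 0.40 in shCT cells.

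No chain of the other laminins but Lama4 passed. Lama5, the main alpha chain of epithelial basement membranes, had an RA difference of 0.07 ± 0.12 in shLOXL2 cells and -0.17 ± 0.12 in shCT cells. Lamb2, of synaptic and kidney laminins, differed by -0.12 ± 0.13 in shLOXL2 cells and -0.05 ± 0.13 in shCT cells. Lama3 and Lamb3, of the skin laminin that anchors hemidesmosomes, had average differences of 0.14 ± 0.09 and 0.07 ± 0.09. Lama2, of muscle laminin, had -0.04 ± 0.09. Lamc3 differed by -0.26 ± 0.16 in shLOXL2 cells, whose groups did not overlap, and by 0.20 ± 0.16 in shCT cells. Over all 10 laminin chains the average differences ran from -0.11 to 0.34 with a median of -0.05, beside -0.01 over all genes.

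Lists of genes that act with integrins and laminins were read next. Of 20 basement membrane and matrix genes, 2 fell in cells of each construct, and 1 rose in shCT cells, where 3.46% of all genes were called in shLOXL2 cells and 4.25% in shCT cells. Nid1, a nidogen that links laminin to collagen IV, differed by -0.61 ± 0.12 in shLOXL2 cells (limma adjusted p = 0.00974) and -0.60 ± 0.12 in shCT cells (0.0108). Nid2 differed by -0.48 ± 0.12 (0.0473) and -0.54 ± 0.12 (0.0244). Fras1, a basement membrane protein of epithelia, rose by 0.47 ± 0.12 in shCT cells (limma adjusted p = 0.0374). The median over the list was 0.01 in shLOXL2 cells and 0.13 in shCT cells, beside -0.01 and 0.00 over all genes.

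Of 36 genes of the adhesion complex, 2 rose and 3 fell in cells of each construct, beside the same 3.46% and 4.25% of all genes. Tgfb1i1, a paxillin-like adaptor, rose by 2.06 ± 0.20 in shLOXL2 cells and 2.72 ± 0.20 in shCT cells, and Parva, a parvin that binds integrin-linked kinase, by 0.94 ± 0.16 and 0.85 ± 0.16. Ptk2b, a kinase related to focal adhesion kinase, differed by -1.40 ± 0.16 in shLOXL2 cells and -1.29 ± 0.16 in shCT cells. Tns3, a tensin, differed by -0.86 ± 0.13 and -0.59 ± 0.13. Flna, an actin crosslinker, fell in shLOXL2 cells (-0.57 ± 0.15) and Tns2, another tensin, in shCT cells (-0.68 ± 0.15). The limma adjusted p of each named call was 0.0495 or lower. The median over the list was 0.06 in cells of each construct, beside -0.01 in shLOXL2 cells and 0.00 in shCT cells over all genes.

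Of 7 laminin receptors outside the integrin family and syndecans, Dag1 rose and Mcam fell in cells of each construct, where 3.46% of all genes were called in shLOXL2 cells and 4.25% in shCT cells. Dag1, the dystroglycan that binds laminin, rose by 0.72 ± 0.12 in shLOXL2 cells and 0.92 ± 0.12 in shCT cells. Mcam, a laminin-binding adhesion molecule, differed by -1.09 ± 0.13 in shLOXL2 cells and -1.02 ± 0.13 in shCT cells. Of 5 netrins, which carry a laminin-like domain, Ntn1 fell, with -1.61 ± 0.15 in shLOXL2 cells and -1.57 ± 0.15 in shCT cells. Each of these 3 genes had a limma adjusted p of 0.00332 or lower. The median difference was -0.16 in shLOXL2 cells and -0.08 in shCT cells over the receptors, and -0.09 and 0.16 over the netrins, beside -0.01 and 0.00 over all genes.

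LOXL2 knockdown changed none of the 35 members past the limma threshold in either RA state. The 2 clusters that cover Loxl2 itself also missed it when all transcript clusters were tested. The clearer cluster was at 53.4% of the shCT signal with RA and 67.5% without RA, and the other at 47.2% and 89.6%. Averaged over the RA states, their limma adjusted p was 0.280 and 0.543. With RA, 0% of all genes were called, and 3 members had an unadjusted p under 0.05, beside 4.96% of all genes. Without RA, 0% of all genes were called, and 2 members had an unadjusted p under 0.05, beside 4.68% of all genes. The 95% intervals of the knockdown differences lay between -0.87 and 0.65 with RA and between -1.10 and 0.77 without RA, so for the members with wide intervals a sizeable difference may have gone undetected.

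With RA the smallest p-values belonged to Itgb8, Itga11 and Itga3. Itgb8 had 3.72, 4.04 and 3.81 on shLOXL2 arrays with RA, against 3.91, 4.42 and 4.59 on shCT arrays with RA, which overlapped (-0.45 ± 0.17, unadjusted p from limma = 0.0181). Itga11, a collagen receptor chain of fibroblasts, had 4.08, 4.42 and 4.12, against 4.55, 4.89 and 4.42 on shCT arrays, which also overlapped (-0.42 ± 0.17, unadjusted p from limma = 0.0312). For Itga3 the shLOXL2 arrays with RA were all above the shCT arrays with RA (0.30 ± 0.13, unadjusted p from limma = 0.0412). The limma adjusted p was 0.972 for each.

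Without RA they belonged to Itga9, Itgam and Lamb1. Itga9 had 6.12, 6.36 and 6.57 on shLOXL2 arrays, all above the 5.75, 5.91 and 6.09 on shCT arrays (0.43 ± 0.16, unadjusted p from limma = 0.0157, adjusted 0.891). Itgam, an alpha chain of macrophages and neutrophils, had 4.46, 4.24 and 3.96 on shLOXL2 arrays, against 4.46, 4.51 and 4.63 on shCT arrays, a narrow separation (-0.31 ± 0.14, unadjusted p from limma = 0.0437, adjusted 1). Lamb1 differed by -0.31 ± 0.22 with RA and by -0.42 ± 0.22 without RA. Leaving out the shCT arrays numbered 1 gave -0.12 ± 0.13 with RA and -0.11 ± 0.13 without RA.

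Lama1 differed by -0.25 ± 0.29 with RA and -0.48 ± 0.29 without RA, and leaving out those arrays gave 0.05 ± 0.18, with the opposite sign, and -0.13 ± 0.18. For Lamc1 the differences were -0.18 ± 0.15 with RA and -0.13 ± 0.15 without RA. Without those arrays they were -0.08 ± 0.14 with RA and 0.03 ± 0.14 without RA, the second again with the opposite sign. Because the shCT arrays numbered 1 were the highest for Lama1, Lamb1 and Lamc1, leaving them out could only raise these differences. The direction of these shifts is therefore no test. The Lamc3 difference without RA was 0.44 ± 0.14 when those arrays were left out (unadjusted p from limma = 0.00881, adjusted 0.826), against 0.23 ± 0.16 with them. Replicate 1 was also the highest shCT array without RA for Lamc3, so leaving it out had to raise this difference too. That removal was chosen after seeing the data, and the Lamc3 shift is likewise no test.

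Averaged over the RA states, the smallest p-values were those of Itga11 (-0.34 ± 0.12, limma adjusted p = 0.546), Itga3 (0.25 ± 0.09, 0.587) and Lamb1 (-0.36 ± 0.16, 0.696). Without the shCT arrays numbered 1 the averaged Lamb1 difference was -0.12 ± 0.09. None of the members was called, where 0.0541% of all genes were, 0.0361% higher and 0.018% lower. Of the members, 4 had an unadjusted p under 0.05, beside 6.72% of all genes. Counted by arrays alone, 1 member was higher and 3 were lower on every shLOXL2 array with RA, where 6.61% and 5.88% of all genes were. Without RA 3 were higher and 2 lower, where 4.2% and 4.04% of all genes were. The median knockdown difference over the members was -0.05 with RA and 0.04 without RA, beside 0.01 over all genes in each.

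**Figure D4:**
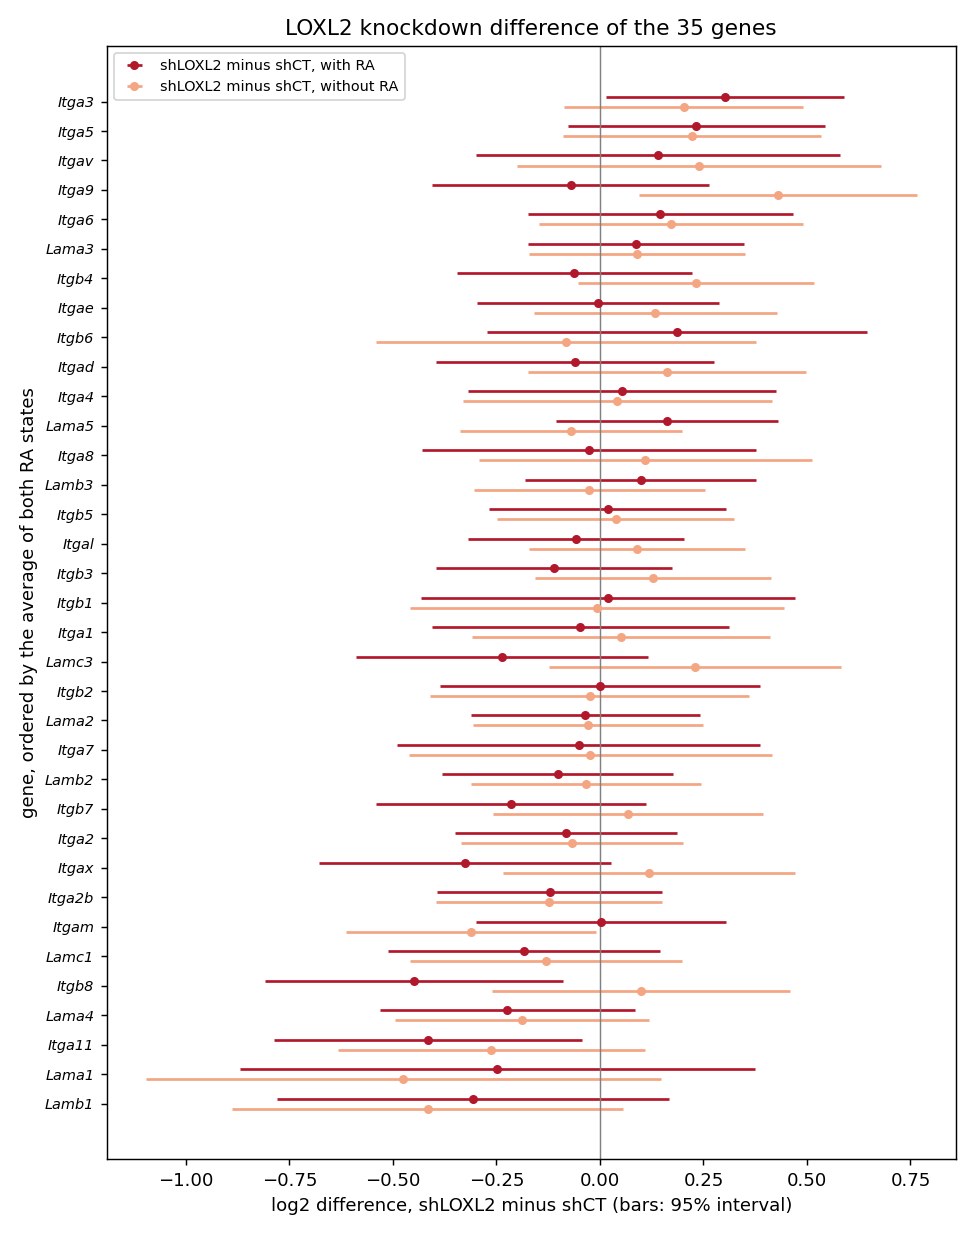
Log2 difference between shLOXL2 and shCT cells for the 35 members, with RA and without RA, with 95% intervals as bars. The intervals lie between -1.10 and 0.77, and no member passed the adjusted threshold.

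The difference between the RA responses of the constructs was tested directly. No member passed, where 0% of all genes were called, and 2 had an unadjusted p under 0.05, beside 2.94% of all genes. For Itga3 the RA response in shLOXL2 cells minus that in shCT cells was 0.10, with a 95% interval from -0.31 to 0.51, and for Itgb7 it was -0.28, from -0.74 to 0.18. The smallest p-values were those of Itgb8 (-0.55, from -1.06 to -0.04), Itga9 (-0.50, from -0.98 to -0.03) and Lamc3 (-0.47, from -0.96 to 0.03), with a limma adjusted p of 1 each. Lamc3 had 4.21, 4.40 and 4.50 on shLOXL2 arrays with RA, against 4.53, 4.68 and 4.70 without RA. In shCT cells, its signal was 4.65, 4.58 and 4.60 with RA, against 4.82, 4.12 and 4.28 without RA. Replicate 1 of shCT without RA was far above the other shCT arrays without RA. Without both shCT arrays numbered 1 the RA difference of Lamc3 in shCT cells was 0.39 ± 0.15, against 0.20 ± 0.16 with them. Given that high array, leaving it out had to raise this difference, so the shift is no test.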

How the data were processed

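The authors deposited log2 signals per transcript cluster, 1 column per array. The submitters' processing notes list the tools RMA, limma and R (version 3.1.1) and do not give their roles. No scanner files were used, so background correction was not checked, and normalization between arrays removes shifts shared by most genes.

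Of 41345 clusters, 23521 carry 1 gene in the platform annotation, and the brightest cluster per gene gave 22180 genes (symbols updated through RefSeq). The members and lists were chosen with earlier results of these data known. One fit over all 12 arrays with limma 3.58.1 in R 4.3.3 gave 7 contrasts, with Benjamini-Hochberg adjustment over all genes and a threshold of 0.05. The fit was tested on simulated data. Alternatives were blocks by replicate number (statmod 1.5.0), another variance model, a filter on dim genes, quantile normalization, centring, the mean of clusters, all clusters, only the groups compared, and leaving out arrays. A fixed block for each construct and number, and leaving out both shCT arrays numbered 1, were added after seeing the data.

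Over all genes, deviations from group means correlated between same-number arrays with and without RA at 0.558, 0.248 and 0.216 in shLOXL2 cells. These numbers were taken to pair the arrays, although replicate 2 with RA correlated best with replicate 3 without RA. In shCT cells the deviations correlated at 0.363, 0.0394 and 0.631, and replicate 2 with RA correlated best with replicate 1 without RA. Across constructs 5 of 6 correlations were below 0. The labels name no pairing.

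Named in full were members past the threshold, the 3 smallest p-values of each knockdown contrast and of the difference, their partner chains, and up to 4 called genes per list and RA contrast.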

Additional observations from a re-analysis of the deposited data

How the results depend on the processing

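Itga3 was called in both constructs under every alternative that was run, and so were 0 members for knockdown and for the difference of RA responses. The replicate number as a block over all arrays called 2 members in shLOXL2 cells, 2 in shCT cells, 5 on average and 0 for knockdown. With a random replicate block for each construct and number the counts were 6 in shLOXL2 cells, 6 in shCT cells and 14 on average, and with a fixed one 5, 4 and 10. In the fixed form those blocks called 7.32% of all genes in shLOXL2 cells, 8.12% in shCT cells and 16.6% on average. For the other alternatives in this paragraph the share of all genes called is not given. Their member counts, the random block's included, are therefore not a result about the members. In shLOXL2 cells 4 members passed without genes dimmer than the median, which left 16 members, and 4 after centring on array medians. In shCT cells 1 member passed without both arrays numbered 1. With 1 array left out the counts ran from 2 to 3 in shLOXL2 cells, from 1 to 2 in shCT cells and from 4 to 10 on average, the highest without replicate 1 of shLOXL2 without RA. For the members called with RA or with the smallest knockdown p-values, 13 values under alternatives gained and 28 lost the call, and 616 kept their direction and side of the threshold. Outside these, the uncalled knockdown differences of Lama1 with RA (0.05) and Lamc1 without RA (0.03) turned sign without both shCT arrays numbered 1. Members dimmer than the median of all genes may carry background in their signal, which would make their differences too small.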
